A study of Mus musculus with 14 samples.

Results

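Transcripts of 10 amino acid transporters were followed across 14 one-colour Illumina bead arrays of mouse RNA. The genes were *Slc7a3*, *Slc7a8*, *Slc7a11*, *Slc7a5*, *Slc7a1*, *Slc3a2*, *Slc1a4*, *Slc1a5*, *Slc38a2* and *Slc6a9*. They were chosen by their log2 differences of HTF/MultiBlast and of ISM1/ISM2 from oviduct, so values in those comparisons describe the choice and carry no test. They are 10 of 16593 gene symbols on the arrays and have 16 of 25697 probes, and a gene with several probes is led by the probe of highest mean. Of the 10 genes, 7 passed the detection filter (detection p under 0.01 on at least 2 arrays) and are among the 8669 units tested.

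The study asked, by its title, about blastocysts after sperm injection and culture. HTF/MultiBlast (3 arrays) is titled MultiBlast/HTF, without the word blastocyst that the ISM1/ISM2 and KSOM(aa) titles carry. The titles do not explain the term MultiBlast. Whether it names part of the culture or the embryos themselves was not settled, so differences of this group are given for the group as a whole. Blastocysts from culture in ISM1 with ISM2 (group ISM1/ISM2) were on 3 arrays and those from KSOM(aa) medium on 2. The remaining groups are labelled oviduct (3 arrays) and micromanipulation control (3 arrays), and the labels give no strain, age or embryo number for any group. The series text calls the replicates biological, but the 3 micromanipulation control arrays all carry replicate number 1 in their descriptions. If they are repeats of 1 sample, their spread is technical. It then enters the p-values of every comparison, since all 5 groups share 1 estimate of the spread. Comparisons with that group would also count 1 sample as 3. Most markers of oviduct tissue were not detected in the oviduct group or any other. The secretory cell genes *Pax8* and *Ovgp1*, the muscle gene *Myh11*, the stromal genes *Col1a1* and *Dcn*, and *Tppp3* and *Krt5* were detected on 0 of 14 arrays. *Foxj1* was detected on 3 and *Des* on 12. The summed level of the 9 markers ran from 208.8 to 234.4 in oviduct, 217.6 to 241.8 in HTF/MultiBlast, 237.7 to 255.5 in KSOM(aa), 245.5 to 264.4 in micromanipulation control and 253.9 to 277.2 in ISM1/ISM2. All 12 trophectoderm markers looked up, *Cdx2* among them, were detected on 14 of 14. Median intensity ran from 96.6 to 152 and the number of detected probes from 8533 to 10188, with both extremes in the oviduct group. In bulk RNA, fewer cells of a type and less RNA per cell cannot be told apart.

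A cell takes up amino acids through carriers with overlapping substrates. Some are sodium-coupled and concentrate an amino acid inside the cell, while others are exchangers that trade one amino acid for another across the membrane. In mouse preimplantation embryos these carriers serve protein synthesis, and uptake of glycine also serves the control of cell volume. Transcripts of many of them rise in mammalian cells when amino acids are scarce or the endoplasmic reticulum is stressed, through the transcription factor ATF4, which binds composite C/EBP-ATF elements.

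The promoters of 7 of the 10 genes were in the RefSeq table of GRCm38.p6, as 10 windows of 250 bases before to 50 bases after the start. *Slc7a3*, *Slc7a5* and *Slc1a5* were not matched. The core letters of the C/EBP-ATF element, TGATGNAA, were searched on both strands, where the opposite strand reads TTNCATCA. They were found in 2 of the 7 genes, *Slc1a4* and *Slc7a11*, against 4.51% of 27025 genes and 3.97% of 32851 promoter windows in the table. The 2 windows with a match are shown because they hold the letters, printed on the gene's strand from 250 bases before to 20 bases after the start, with the match in capitals. *Slc1a4* lies on the minus strand at chr11:20332694-20332963 and *Slc7a11* on the minus strand at chr3:50443594-50443863.
Slc1a4: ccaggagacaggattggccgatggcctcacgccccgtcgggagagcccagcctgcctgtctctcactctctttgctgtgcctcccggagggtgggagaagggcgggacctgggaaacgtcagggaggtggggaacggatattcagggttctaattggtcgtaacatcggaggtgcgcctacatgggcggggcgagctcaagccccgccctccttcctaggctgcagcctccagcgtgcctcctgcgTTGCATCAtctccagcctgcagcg
Slc7a11: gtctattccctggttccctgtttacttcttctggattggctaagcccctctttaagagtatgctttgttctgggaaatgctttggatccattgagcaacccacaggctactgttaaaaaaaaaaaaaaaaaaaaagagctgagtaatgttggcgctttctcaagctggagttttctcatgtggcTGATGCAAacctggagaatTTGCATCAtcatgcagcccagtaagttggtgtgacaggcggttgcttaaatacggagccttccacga
In *Slc1a4* the match began 4 bases before the start, and in *Slc7a11* the matches began 66 and 47 bases before it, 1 on each strand. A match of letters is a description of the window and not a site of binding.

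The cationic amino acid carrier *Slc7a3*, which brings arginine, lysine and ornithine into cells, spread over the widest range of the 7 genes. The gene lies at chrX:101079146-101090452 (GRCm38.p6). Normalised log2 intensity of its leading probe was 11.39, 11.62 and 11.72 on the oviduct arrays and 10.76, 10.92 and 11.36 on the micromanipulation control arrays. On the KSOM(aa) arrays it was 10.42 and 10.53, and on the HTF/MultiBlast arrays 8.49, 9.48 and 8.33. On the ISM1/ISM2 arrays the probe read 4.65, 5.23 and 4.77 and was not detected on any of the 3. No 2 of the 5 groups overlapped.

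Group means of *Slc7a3* were 11.58 ± 0.17 (SD, n = 3) in oviduct, 8.77 ± 0.63 in HTF/MultiBlast (n = 3) and 4.88 ± 0.30 in ISM1/ISM2 (n = 3). HTF/MultiBlast minus oviduct was -2.81 ± 0.28 (SE) on the log2 scale, a level 7.03-fold lower. Against ISM1/ISM2, where the probe was dark, oviduct was at least 73.6-fold higher and HTF/MultiBlast at least 10.5-fold higher, both computed from the lowest signal that counted as detected on each array. The KSOM(aa) and micromanipulation control arrays did not choose the genes, but the oviduct arrays they are set against took part. KSOM(aa) minus oviduct was -1.10 ± 0.32 (limma, adjusted p = 0.175) and micromanipulation control minus oviduct was -0.57 ± 0.28 (limma, adjusted p = 0.335). Neither passed the threshold of 0.05, although the arrays did not overlap in either comparison. A further *Slc7a3* probe was not detected on any of the 14 arrays, so the level of this gene rests on 1 probe.

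*Slc7a1*, the more widely expressed cationic carrier, was not detected by either of its probes on any array. Its leading probe averaged between 4.39 and 4.52 in the 5 groups, at the level of background. No comparison of the 2 cationic carriers is therefore possible beyond detection, and array probes of different genes give no common scale.

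**Figure D1:**
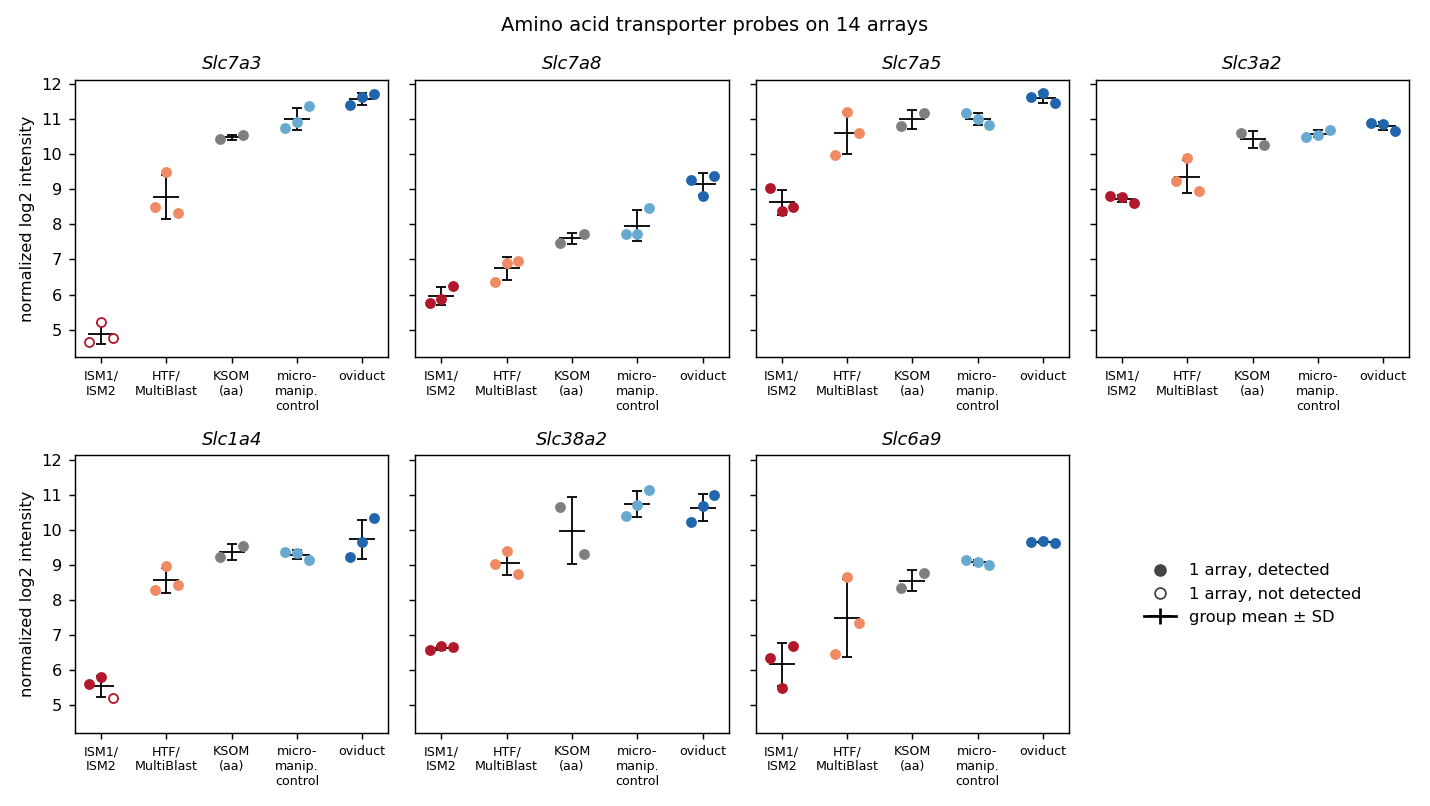
Normalized log2 intensity (vertical axis) of the leading probe of the 7 tested transporters by group (horizontal axis), 1 point per array, open where the probe was not detected, with the group mean and SD as bars. *Slc7a3* lies between 11.39 and 11.72 on the oviduct arrays and between 4.65 and 5.23 on the ISM1/ISM2 arrays, where it is not detected, and the ISM1/ISM2 arrays are the lowest 3 for 6 of the 7 genes.

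The exchangers of neutral amino acids, *Slc7a5* and *Slc7a8*, are light chains that reach the membrane bound to the heavy chain *Slc3a2* (CD98). *Slc7a5* prefers large neutral amino acids such as leucine, and *Slc7a8* accepts small neutral ones too. All 3 had their highest group mean in oviduct and their lowest in ISM1/ISM2, with HTF/MultiBlast next to it.

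*Slc7a8* (chr14:54722215-54781886) read 9.27, 8.80 and 9.38 on the oviduct arrays and 7.72, 7.72 and 8.46 on the micromanipulation control arrays. The KSOM(aa) arrays gave 7.48 and 7.72, the HTF/MultiBlast arrays 6.36, 6.90 and 6.96, and the ISM1/ISM2 arrays 5.75, 5.87 and 6.23. Every oviduct array was above every other array, and only KSOM(aa) and micromanipulation control overlapped among neighbouring groups. The difference from oviduct was -2.41 ± 0.26 in HTF/MultiBlast and -3.20 ± 0.26 in ISM1/ISM2.

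*Slc7a8* was the 1 gene of the 7 past the adjusted threshold in KSOM(aa), where it fell by 1.55 ± 0.29 on the log2 scale against oviduct, a level 2.93-fold lower (limma, adjusted p = 0.0443). The call was lost in 17 of 24 alternative settings, among them 10 of the 14 that left out 1 array each. Over all 24 adjusted p ran from 0.0274 to 0.927, while the difference stayed between -1.73 and -0.89. Without KSOM(aa) replicate 1 it was -1.43 (limma, adjusted p = 0.152) and without oviduct replicate 3 it was -1.44 (limma, adjusted p = 0.131). In micromanipulation control the difference was -1.18 ± 0.26 (limma, adjusted p = 0.0619), and 7 of 24 alternatives took it past the threshold, with adjusted p from 0.0263 to 0.235.

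A weaker *Slc7a8* probe gave differences in the same direction. It read 6.97 ± 0.30 (SD, n = 3) in oviduct, with values from 6.78 to 7.31, 5.43 ± 0.17 in KSOM(aa) (n = 2) and 5.52 ± 0.34 in micromanipulation control (n = 3), where it was detected on 1 array each. Fitted with every tested probe as its own unit, it fell by 1.53 ± 0.23 in KSOM(aa) (limma, adjusted p = 0.028) and by 1.44 ± 0.21 in micromanipulation control (limma, adjusted p = 0.0161). In the same fit the leading probe had adjusted p = 0.0505 in KSOM(aa) and 0.0683 in micromanipulation control. Both groups are set against the same 3 oviduct arrays, so the 2 comparisons are not separate evidence, and these arrays also entered the comparisons that chose the genes.

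*Slc7a5* (chr8:121881146-121907686) read 11.62, 11.75 and 11.45 on the oviduct arrays and 9.03, 8.38 and 8.48 on the ISM1/ISM2 arrays. The HTF/MultiBlast arrays gave 9.99, 11.19 and 10.61, the KSOM(aa) arrays 10.80 and 11.18, and the micromanipulation control arrays lay between 10.82 and 11.16. The 3 groups between oviduct and ISM1/ISM2 overlapped each other, and none of them reached the oviduct values. ISM1/ISM2 minus oviduct was -2.98 ± 0.28 and HTF/MultiBlast minus oviduct -1.01 ± 0.28. KSOM(aa) and micromanipulation control were both -0.62 from oviduct, with SE 0.31 and 0.28, and neither passed (limma, adjusted p = 0.439 and 0.279).

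The heavy chain *Slc3a2* (chr19:8706882-8723369) read 10.88, 10.87 and 10.67 on the oviduct arrays, 9.23, 9.88 and 8.95 on the HTF/MultiBlast arrays and 8.81, 8.77 and 8.61 on the ISM1/ISM2 arrays. The KSOM(aa) arrays gave 10.60 and 10.26 and the micromanipulation control arrays 10.50, 10.54 and 10.70. The HTF/MultiBlast and ISM1/ISM2 arrays lay apart from each other and below all others, and micromanipulation control overlapped oviduct. Its distance from oviduct in ISM1/ISM2, -2.08 ± 0.22, was the smallest of the 7 genes there, and HTF/MultiBlast minus oviduct was -1.45 ± 0.22. The tested differences were -0.38 ± 0.25 in KSOM(aa) (limma, adjusted p = 0.565) and -0.23 ± 0.22 in micromanipulation control (limma, adjusted p = 0.643), and both turned slightly positive, to 0.0023 and 0.16, under scaling to the 75th percentile.

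*Slc7a11*, the cystine-glutamate exchanger that also pairs with *Slc3a2*, was detected on 1 of 14 arrays, oviduct replicate 2, at 5.45. That array also had the most detected probes, 10188. Its group means lay between 4.46 and 4.91, and the gene was not tested.

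**Figure D2:**
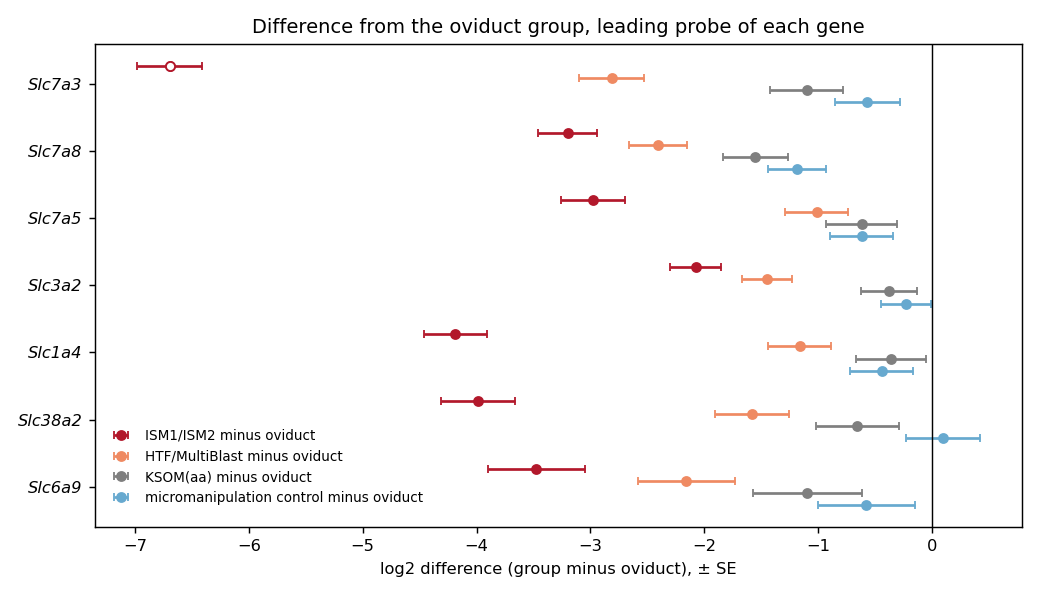
Log2 difference from the oviduct group (horizontal axis) of the leading probe of each gene (vertical axis), with the SE of the model as bars and an open point where the gene was not detected on any array of the group. The ISM1/ISM2 points run from -6.70 to -2.08 and the HTF/MultiBlast points from -2.81 to -1.01, both from comparisons that chose the genes, while the KSOM(aa) points run from -1.55 to -0.36.

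*Slc1a4*, a sodium-dependent exchanger of alanine, serine and cysteine, was close to oviduct in KSOM(aa) and micromanipulation control and far below it in ISM1/ISM2. The gene lies at chr11:20302180-20332713. The oviduct arrays read 9.22, 9.64 and 10.33, the KSOM(aa) arrays 9.21 and 9.53, and the micromanipulation control arrays 9.38, 9.34 and 9.15. The HTF/MultiBlast arrays gave 8.30, 8.97 and 8.44, and the ISM1/ISM2 arrays 5.62, 5.79 and 5.22, the last not detected. Oviduct, KSOM(aa) and micromanipulation control overlapped, and the HTF/MultiBlast arrays lay below all 3.

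ISM1/ISM2 minus oviduct was -4.19 ± 0.28 for *Slc1a4*, an 18.2-fold lower level, against -1.16 ± 0.28 in HTF/MultiBlast. The tested differences were -0.36 ± 0.31 in KSOM(aa) (limma, adjusted p = 0.686) and -0.44 ± 0.28 in micromanipulation control (limma, adjusted p = 0.44). *Slc1a5*, the related carrier of glutamine, was not detected by either of its probes on any array.

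*Slc38a2*, the sodium-coupled carrier of small neutral amino acids known as system A, had a wide spread in KSOM(aa). The gene lies at chr15:96687392-96699728. Its leading probe read 10.65 on KSOM(aa) replicate 1 and 9.31 on replicate 2. The oviduct arrays gave 10.23, 10.68 and 10.99, and the micromanipulation control arrays 10.39, 10.70 and 11.12. On the HTF/MultiBlast arrays it read 9.02, 9.41 and 8.74, and on the ISM1/ISM2 arrays 6.58, 6.69 and 6.66. The ISM1/ISM2 values were tight and below all others, and of the 2 KSOM(aa) arrays 1 lay within the HTF/MultiBlast range and the other within the oviduct range.

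The difference of *Slc38a2* from oviduct was -1.58 ± 0.32 in HTF/MultiBlast and -3.99 ± 0.32 in ISM1/ISM2. KSOM(aa) minus oviduct was -0.65 ± 0.36 (limma, adjusted p = 0.494), and 0.02 without KSOM(aa) replicate 2. Micromanipulation control minus oviduct was 0.10 ± 0.32 (limma, adjusted p = 0.91), the 1 difference of the 7 above 0, and it changed sign, to -0.10 without oviduct replicate 1 and to -0.09 without micromanipulation control replicate 3.

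The 3 *Slc38a2* probes differed. Probe ILMN_1244123 read 8.54 ± 0.78 (SD, n = 3) in oviduct, 6.80 ± 0.47 in HTF/MultiBlast (n = 3) and 4.58 ± 0.41 in ISM1/ISM2 (n = 3), where it was not detected, with oviduct at least 8.94-fold higher. On this probe the order of the 2 KSOM(aa) arrays was turned, with 7.21 on replicate 1 and 8.66 on replicate 2. Micromanipulation control minus oviduct was -1.21 ± 0.45 on it (limma, adjusted p = 0.213), against 0.10 on the leading probe. The third probe, ILMN_2721692, stayed between 4.81 and 5.90 on all arrays and was detected on 9 of 14. Probe sequences were not used here, so the 3 probes are not placed on the transcript.

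**Figure D3:**
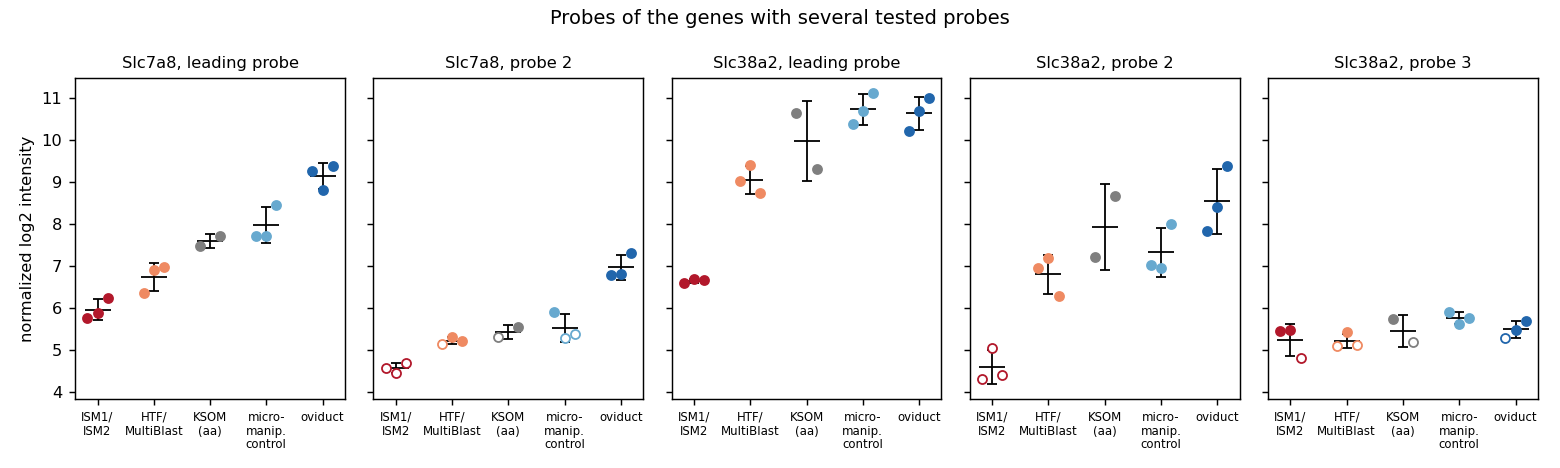
Normalized log2 intensity (vertical axis) by group (horizontal axis) for the 2 tested probes of *Slc7a8* and the 3 of *Slc38a2*, 1 point per array, open where not detected, with group means and SD. Both *Slc7a8* probes are highest on the oviduct arrays, while the third *Slc38a2* probe lies between 4.81 and 5.90 throughout.

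*Slc6a9*, the sodium- and chloride-coupled glycine carrier GLYT1, had the widest spread within groups. The gene lies at chr4:117835258-117869305. On the oviduct arrays it read 9.65, 9.67 and 9.62 and on the micromanipulation control arrays 9.15, 9.08 and 8.98. The KSOM(aa) arrays gave 8.34 and 8.76, the HTF/MultiBlast arrays 6.47, 8.66 and 7.33, and the ISM1/ISM2 arrays 6.34, 5.50 and 6.68. Oviduct and micromanipulation control were tight and apart from each other, while HTF/MultiBlast overlapped ISM1/ISM2 at its low end and KSOM(aa) at its high end. The SD within groups was 0.60, at the 91.9th percentile of all units, against 0.25 and the 29.7th percentile for *Slc3a2*.

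The difference of *Slc6a9* from oviduct was -2.16 ± 0.43 in HTF/MultiBlast and -3.47 ± 0.43 in ISM1/ISM2. It was -1.09 ± 0.48 in KSOM(aa) (limma, adjusted p = 0.374) and -0.57 ± 0.43 in micromanipulation control (limma, adjusted p = 0.524).

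Counted together, 7 of the 7 tested genes were called lower in HTF/MultiBlast than in oviduct, where 2.68% of all units were. In ISM1/ISM2 against oviduct 7 of 7 were called lower, where 11.5% of all units were. The genes were chosen for these comparisons, so nothing is read from either count. The median of the 7 was -1.58 in HTF/MultiBlast and -3.47 in ISM1/ISM2, with the median of all units at 0.03 and 0.02. The *Slc7a5* call in HTF/MultiBlast was lost in 15 of 24 alternatives, and without HTF/MultiBlast replicate 1 or without replicate 3 the count fell to 4.

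In KSOM(aa) against oviduct 1 of 7 was called lower, *Slc7a8*, against 0.196% of all units called lower, and 3 had an unadjusted p under 0.05. No share of all units at that unadjusted threshold was computed. Nothing is therefore read from counts at it, here or below. The arrays of 5 of the 7 lay below oviduct without overlap, as did those of 8.11% of all units. In micromanipulation control against oviduct 0 of 7 were called by limma, against 0.277% of all units called lower, and 2 had an unadjusted p under 0.05. There the arrays of 4 of 7 did not overlap, against 11.3% of all units. The median difference was -0.65 in KSOM(aa) and -0.57 in micromanipulation control, with all units at 0.01 and 0.03. The oviduct arrays entered the comparisons that chose the genes, so these counts and medians are not free of the choice. In simulated data with the same spread, KSOM(aa) against oviduct recovered 31% of changes of 1 on the log2 scale and 84% of changes of 2, and micromanipulation control recovered 40% and 93%. The simulation changed 100 units by each size. Fewer changed units make the adjusted threshold harder to pass, so the rates may be lower in these arrays. The summed level of the blood and immune markers was 474.7 on oviduct replicate 3, where *Lyz2*, a gene of macrophages and granulocytes, was detected, and at most 185.8 on the other 13 arrays. *Hba-a1* and *Ptprc* of that list were detected on 0 of 14 arrays. Without oviduct replicate 3 the genes called lower against oviduct numbered 7 for the ISM1/ISM2 arrays and 5 for HTF/MultiBlast. They numbered 0 for KSOM(aa) and 0 for micromanipulation control.

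Micromanipulation control and KSOM(aa), which took no part in choosing the genes, were not called apart in any of the 7 genes. Of the 7 genes 0 were called by limma, as for all units (percent called 0), and 0 had an unadjusted p under 0.05. The differences ran from -0.08 for *Slc1a4* to 0.76 for *Slc38a2*, with a median of 0.37. The arrays of 2 of the 7, *Slc7a3* and *Slc6a9*, were higher in micromanipulation control without overlap, as were those of 9.92% of all units. Simulated data with the same spread and changes put into the micromanipulation control arrays recovered 36% of changes of 1 on the log2 scale and 87% of changes of 2. Here too 100 units were changed by each size, and the rates may be lower with fewer.

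ISM1/ISM2 and HTF/MultiBlast differed from each other in 4 of 7 genes by the call rule (*Slc7a3*, *Slc7a5*, *Slc1a4* and *Slc38a2*, all lower in ISM1/ISM2), against 3.36% of all units. ISM1/ISM2 minus HTF/MultiBlast was -3.02 ± 0.28 on the log2 scale for *Slc1a4*, -2.41 ± 0.32 for *Slc38a2* and -1.96 ± 0.28 for *Slc7a5*. For *Slc7a8*, *Slc3a2* and *Slc6a9* the differences were -0.79 ± 0.26, -0.63 ± 0.22 and -1.32 ± 0.43. All of these arrays took part in the choice, so the values are a description. Against KSOM(aa) and against micromanipulation control, ISM1/ISM2 was called lower in 7 of 7 genes each, where 5.32% and 7.71% of all units were, with medians of -2.38 and -2.90. HTF/MultiBlast was called lower in 1 of 7 against KSOM(aa) (*Slc7a3*) and in 4 of 7 against micromanipulation control (*Slc7a3*, *Slc7a8*, *Slc3a2* and *Slc38a2*), where 0.0692% and 0.911% of all units were. Leaving out 1 array at a time gave 0 to 2 and 1 to 5, and without HTF/MultiBlast replicate 1, or without replicate 3, these counts were 0 and 1. Without micromanipulation control replicate 2, or without its replicate 3, the count against that group was also 1. These comparisons reuse the ISM1/ISM2 and HTF/MultiBlast arrays that chose the genes, so nothing is read from their counts.

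The order of the 5 group means was the same in 5 of the 7 genes, with ISM1/ISM2 lowest, then HTF/MultiBlast, KSOM(aa), micromanipulation control and oviduct. That order was found in 3.32% of all units, and its lower end was fixed by the choice. *Slc1a4* had micromanipulation control below KSOM(aa), and *Slc38a2* had micromanipulation control above oviduct. The ISM1/ISM2 arrays were the lowest 3 of the 14 in 6 genes, all but *Slc6a9*, against 6.14% of all units. HTF/MultiBlast replicate 2 was the highest array of its group in 6 genes, all but *Slc7a8*, against 32.9% of all units.

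Over the 14 arrays, Pearson's r of *Slc7a3* with the other 6 genes ran from 0.89 (*Slc7a8*) to 0.98 (*Slc38a2*), with a median of 0.95. The points share arrays and the 5 group levels, and the genes were chosen by differences between some of these groups. For these reasons r is given as a description. By the same measure the 18 other amino acid transporters tested ran from -0.71 to 0.86, with a median of -0.04, and all 8668 other units had a median of 0.00. Among all units, *Slc38a2* ranked 7th, *Slc1a4* 8th, *Slc7a5* 34th, *Slc3a2* 43rd, *Slc6a9* 81st and *Slc7a8* 145th in likeness to *Slc7a3*.

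Outside the 10 genes, the units with a symbol most like *Slc7a3* were *Slc22a4*, an organic cation and ergothioneine carrier, at r = 0.991, *Herpud1*, a protein of the degradation of misfolded proteins in the endoplasmic reticulum, at 0.987, and *Asns*, asparagine synthetase, at 0.987. *Serpinh1*, a collagen chaperone, followed at 0.986 and *Lama1*, a laminin chain of basement membranes, at 0.982. *Slc22a4* read 8.86 ± 0.29 (SD, n = 3) in oviduct, 7.67 ± 0.33 in HTF/MultiBlast (n = 3) and 5.15 ± 0.22 in ISM1/ISM2 (n = 3). The most opposed were *Dph3* at -0.989, *Oasl2*, an interferon-induced gene, at -0.985 and *Dnaaf1* at -0.978. *Oasl2* was not detected on any oviduct, KSOM(aa) or micromanipulation control array and reached 8.76 ± 0.49 in ISM1/ISM2 (n = 3).

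**Figure D4:**
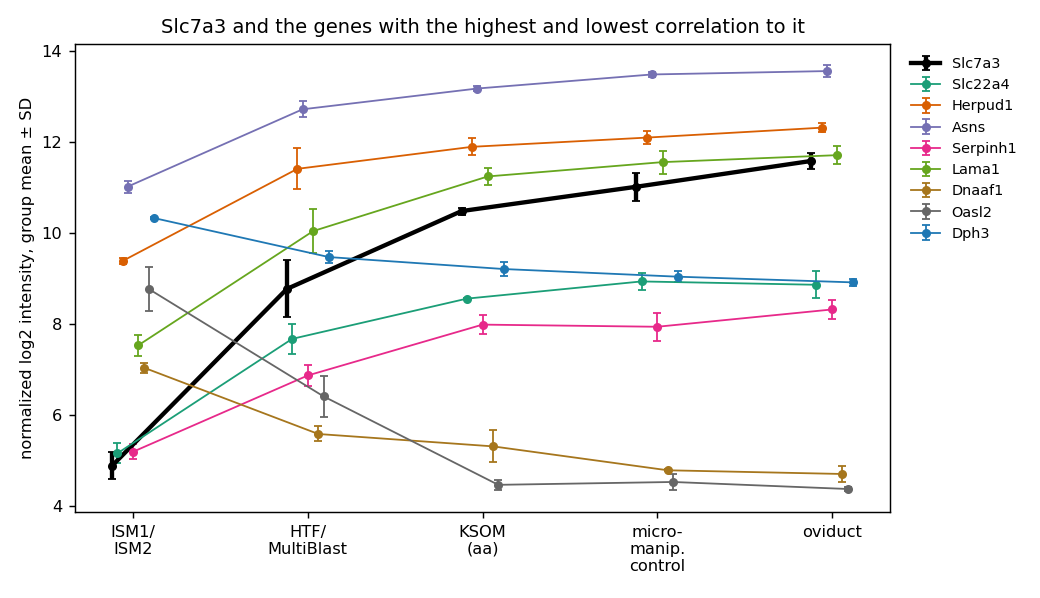
Group mean and SD of normalized log2 intensity (vertical axis) for *Slc7a3* and the 8 genes with the highest and lowest correlation to it, by group (horizontal axis); lines join the groups only to guide the eye, and levels of different probes share no scale. *Slc7a3* and 5 genes have their lowest mean in ISM1/ISM2, and *Dph3*, *Oasl2* and *Dnaaf1* their highest.

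Other amino acid transporters on the arrays were called in both directions in ISM1/ISM2. Of 44 listed, 39 had a probe and 18 were tested. In ISM1/ISM2 4 of the 18 fell against oviduct and 2 rose, where 11.5% of all units were lower and 14.3% higher. The median of the 18 was 0.00 against -3.47 for the 7 genes. The 7 were chosen by this comparison, so the distance between the 2 medians is fixed in part by the choice. Some of the 18 were near background, with *Slc1a7* and *Slc7a9* detected on 3 of 14 arrays each. In HTF/MultiBlast 0 of 18 were called lower and 1 higher by limma, where 2.68% and 3.51% of all units were, with 1 lower and 4 higher at an unadjusted p under 0.05 and a median of 0.11. In KSOM(aa) and in micromanipulation control limma called 0 of 18, with 3 and 4 at an unadjusted p under 0.05, and the medians were 0.07 and -0.01.

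*Slc7a7*, a light chain that pairs with *Slc3a2* and exports cationic amino acids, fell in ISM1/ISM2 by 1.92 ± 0.37 (limma, adjusted p = 0.00242). *Slc38a7* fell by 1.75 ± 0.42 (limma, adjusted p = 0.0081). *Slc38a5*, a glutamine carrier, was dark on every ISM1/ISM2 array. In oviduct 2 arrays had signal above the detection limit, and values ran from 5.37 to 7.43 (SD 1.10). Its level was at least 1.74-fold higher in oviduct (limma, adjusted p = 0.0086). The oviduct arrays themselves took the gene past the detection filter, so nothing is read from this p-value. *Slc38a4* fell by 0.67 ± 0.19, while *Slc38a8* and *Slc38a11* rose by 0.99 ± 0.29 and 1.30 ± 0.43 (limma, adjusted p = 0.0224, 0.025 and 0.0415), all 3 named after their values were seen. *Slc38a10* rose in HTF/MultiBlast by 0.84 ± 0.23 (limma, adjusted p = 0.0492). *Slc7a6*, a further light chain of *Slc3a2*, also looked up after its values were seen, had group means from 10.59 to 11.33 and was not called in any comparison with oviduct.

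Genes of the amino acid response outside transport were lower along with the transporters. Of 20 listed, 16 were tested. Against oviduct 14 of 16 fell in ISM1/ISM2 (median -2.48) and 8 of 16 in HTF/MultiBlast (median -0.97), where 11.5% and 2.68% of all units were lower. In ISM1/ISM2 *Asns* fell by 2.54 ± 0.16, *Chac1*, which degrades glutathione, fell by 5.66 ± 0.38, and *Nupr1*, a small chromatin protein, was not detected, with oviduct at least 29.1-fold higher (limma, adjusted p = 7.61e-07 for each). In HTF/MultiBlast *Nupr1* fell by 2.93 ± 0.36, *Cebpb*, a transcription factor, by 1.85 ± 0.24 and *Stc2*, a secreted glycoprotein, by 2.94 ± 0.44. In KSOM(aa) and in micromanipulation control limma called 0 of 16, with 4 and 2 at an unadjusted p under 0.05 and medians of -0.40 and -0.18. The list was drawn up with earlier results of these arrays known, and its genes were named for their small p. Its direction, counts and differences are therefore not independent of the choice of the transporters and carry no test.

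**Figure D5:**
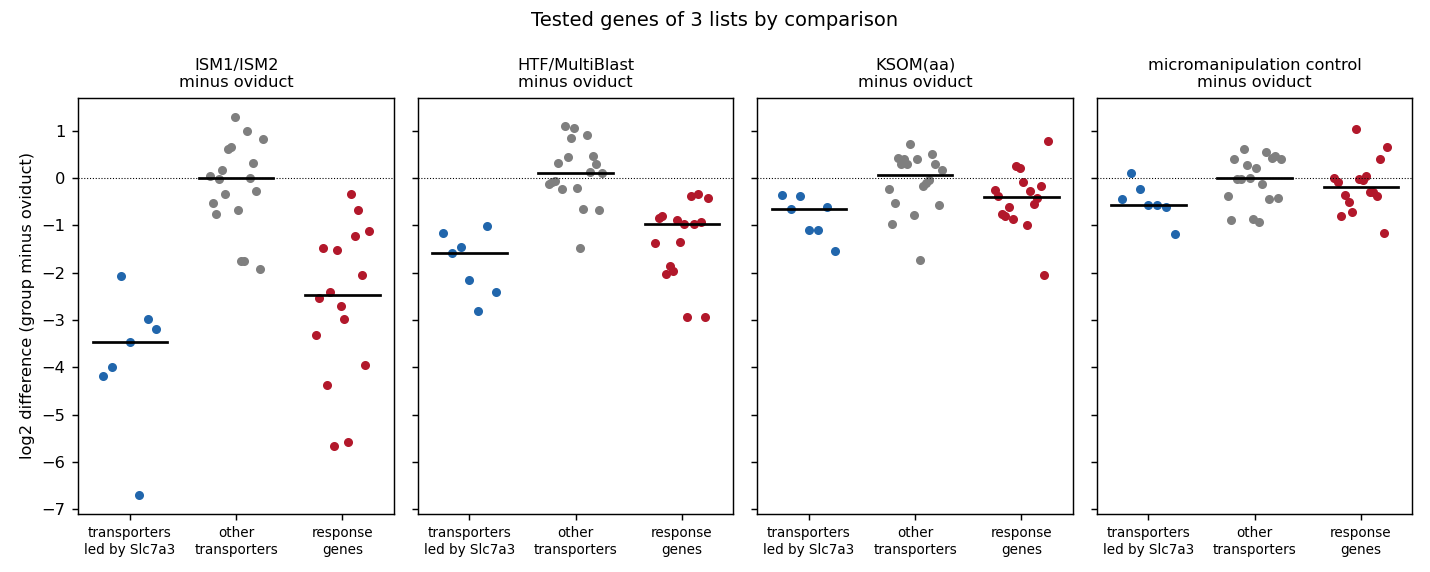
Log2 difference from oviduct (vertical axis) of the 7 transporters, the 18 other amino acid transporters and the 16 amino acid response genes outside transport (horizontal axis), 1 point per gene and a bar at the median, in 1 panel per group; genes dark in a group stand at their measured difference. In ISM1/ISM2 the medians are -3.47, 0.00 and -2.48, and in micromanipulation control -0.57, -0.01 and -0.18. The 7 transporters were chosen by their differences from oviduct in ISM1/ISM2 and HTF/MultiBlast.

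Markers of primitive endoderm, the inner cell mass layer that lays down basement membrane, were also lower in the 2 groups where the transporters were low. Of 18 listed, 17 were on the arrays and 14 were tested. In ISM1/ISM2 11 of 14 fell against oviduct and 1 rose (median -2.20), where 11.5% of all units were lower and 14.3% higher. In HTF/MultiBlast 8 fell and 1 rose (median -1.01), where 2.68% of all units were lower and 3.51% higher. This list too was drawn up with earlier results of these arrays known. *Lama1*, a laminin chain of basement membrane, differed by -4.18 ± 0.25 in ISM1/ISM2 and by -1.67 ± 0.25 in HTF/MultiBlast. *Sox17* and *Pdgfra*, a transcription factor and a receptor of the layer, fell in ISM1/ISM2 by 1.48 ± 0.34 and 1.21 ± 0.30 and were not called in HTF/MultiBlast, at 0.09 ± 0.34 and -0.08 ± 0.30. *Gata6*, a defining factor of the layer, rose by 0.58 ± 0.18 in ISM1/ISM2 and by 0.80 ± 0.18 in HTF/MultiBlast, with differences of 0.92 ± 0.20 in KSOM(aa) and 0.91 ± 0.18 in micromanipulation control that were not called. The defining factor *Gata4* was detected on 1 array and *Foxa2* on 0. The summed level of the 17 genes on the linear scale ran from 22440 to 25290 in oviduct, from 14950 to 16720 in ISM1/ISM2, from 19020 to 21800 in HTF/MultiBlast, from 22720 to 28380 in KSOM(aa) and from 27640 to 29920 in micromanipulation control. Limma called 0 of 14 in KSOM(aa) and in micromanipulation control, with 6 and 4 at an unadjusted p under 0.05. The part of primitive endoderm cells in the transporter values was not tested.

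Of 12 trophectoderm markers 5 fell in ISM1/ISM2 (median -0.59) and limma called 0 in HTF/MultiBlast (2 at an unadjusted p under 0.05, median -0.24). In ISM1/ISM2 0 rose and 7 were not called. Named for their small p, *Elf5* differed from oviduct there by -3.7543 ± 0.374 and *Eomes* by -1.993 ± 0.2002. *Atp1b1* differed by -0.9944 ± 0.1782 (limma, adjusted p = 1.801e-05, 1.897e-05 and 0.001447). Lower markers in ISM1/ISM2 were therefore not confined to the primitive endoderm list. Of 8 tested epiblast markers 2 fell and 1 rose in ISM1/ISM2 (median -0.71), and 0 fell and 1 rose in HTF/MultiBlast (median -0.05). Of all units 11.5% were lower and 14.3% higher in ISM1/ISM2, and 2.68% lower and 3.51% higher in HTF/MultiBlast. With 8 epiblast genes tested, nothing is read from the epiblast counts. The part of trophectoderm and epiblast cells in the transporter values was not tested.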

How the data were processed

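RNA of 14 samples was hybridised to one-colour Illumina bead arrays after in vitro transcription with biotin label, per the labels' protocols. The deposited intensities are bead summaries per probe, taken as not normalized, and the deposited detection p-values set each probe against the negative controls of its array. The submitters' processing notes name BeadStudio 3.2, RMA and lumi with no order and a version only for BeadStudio. The authors' deposited log2 values, with a median of 2.89 per array and an offset not given in the sources used here, served as an alternative.

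The neqc function of limma 3.58.1 (R 4.3.3) corrected the intensities for background, added an offset of 16, quantile-normalized them and took log2, which gave a median of 4.69 on each array. Probes with a detection p under 0.01 on at least 2 of 14 arrays were kept (10975 of 25697), and each symbol was represented by its probe of highest mean, which left 8669 units. All 5 groups entered 1 linear model (lmFit and eBayes), which gave differences with their SE, two-sided tests and Benjamini-Hochberg adjustment over all units, with a threshold of 0.05. The number of arrays limits the precision: the median SE was 0.256, or 0.286 with KSOM(aa). Where a probe was dark on every array of a group, the fold is a bound against the lowest detected signal. The fit was tested on simulated data with known changes.

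Members and gene lists were chosen with earlier results of these data known. Named genes are the 10 members, and the 5 most and 3 least like *Slc7a3* by Pearson's r. Of other transporters up to 3 called ones per comparison were named by size, and of other lists up to 3 by p. Outside this rule, *Sox17*, *Pdgfra*, *Gata6*, *Gata4* and *Foxa2* were named as factors or receptors of primitive endoderm, not by p. The oviduct tissue and blood genes and *Cdx2* were also named outside it. Lists of blood and immune cells, with 1 of 4 genes on the arrays tested, and of cumulus and granulosa cells, with 0 of 4 tested, had 0 calls against oviduct in any group. Oviduct tissue markers had 2 of 9 tested, and *Des*, named after its values were seen, rose by 1.13 ± 0.19 in ISM1/ISM2 (limma, adjusted p = 0.000941). Alternatives changed the normalization, offset, filter, probe choice, weights, block, groups fitted and arrays left out. Promoters come from the RefSeq table of GRCm38.p6 and were searched with Python 3.11.15. Probe sequences and proteins were not used here.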

Additional observations from a re-analysis of the deposited data

How the results depend on the processing

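Of the results recomputed, the 7 lower calls of ISM1/ISM2 against oviduct stayed within 5 to 7 under all alternatives, with 5 where only 5 genes were tested. HTF/MultiBlast against oviduct had 7 genes called lower, but 3 under scaling to the 75th percentile, 4 when only the 2 groups were fitted, and 4 to 7 when single arrays were left out. ISM1/ISM2 against HTF/MultiBlast had 4, but 2 with only probes detected on all arrays, where 5 genes were tested, 5 with the replicate block, 6 with array weights, and 4 to 5 without single arrays. HTF/MultiBlast against KSOM(aa) had 1, but 0 under the authors' values, 75th percentile scaling, all probes kept, only probes detected on all arrays, every tested probe as its own unit, array weights, the replicate block and only the 2 groups, and 0 to 2 without single arrays. HTF/MultiBlast against micromanipulation control had 4, but 1 under scaling to the 75th percentile, 6 with array weights and 1 to 5 without single arrays. The cause of these shifts was not tested, except that stricter detection leaves fewer genes to count.

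KSOM(aa) against oviduct had 1 gene called lower, but 0 under the authors' values, 75th percentile scaling, all probes kept, every tested probe as its own unit, array weights and only the 2 groups, and 0 to 1 without single arrays. Micromanipulation control against oviduct had 0, but 1 (*Slc7a8*) with quantile normalization without background correction, an offset of 50 or array weights, and 0 to 1 without single arrays. With the replicate number as a block the counts were 0 for KSOM(aa) and 1 for micromanipulation control against oviduct. Whether the numbers pair the samples was not settled. Deviations of arrays with the same number had a median correlation of 0.03 over 26 pairs, from -0.36 to 0.43. Of the 14 arrays 6 were closest to one of their own number. Deviations sum to 0 within a group, so these correlations are tied to each other and cannot decide it. Micromanipulation control against KSOM(aa) had 0 under every alternative run.

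Signs turned in 5 of the recomputed differences, all small. *Slc3a2* went to 0.0023 in KSOM(aa) and 0.1633 in micromanipulation control under scaling to the 75th percentile. Without single arrays *Slc38a2* ranged from -1.3231 to 0.0188 in KSOM(aa), turning without KSOM(aa) replicate 2, and in micromanipulation control from -0.1035 to 0.28, turning without oviduct replicate 1 and, at -0.0941, without micromanipulation control replicate 3. Under scaling to the 75th percentile *Slc38a2* was at 0.42 in micromanipulation control. The median difference of all units from oviduct was at most 0.08 under the scalings tried. A block for the slide was not run, since the headers give no slide. Probes near background have only bounds, so the differences of *Slc7a3* in ISM1/ISM2 are limited by signal over background.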
